A study of Mus musculus with 4 samples.

Results

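The keratin genes of the mouse lie in a type I cluster on chromosome 11 and a type II cluster on chromosome 15, and both were examined for p63 binding and histone acetylation in salivary gland epithelial progenitor cells. The members are the peaks whose midpoint lies in chr11:99080000-100150000 (type I, 1070 kb) or in chr15:101150000-101900000 (type II, 750 kb) of the mm9 mouse genome. There were 320 of the 187887 peaks in all: 13 of 4130 p63 peaks and 307 of 183757 H3K27ac peaks. The peaks come from chromatin immunoprecipitation followed by sequencing (ChIP-seq). Primary progenitor cells of the salivary epithelium were used, from adult mice (12 weeks) with wild-type p63. The 4 libraries form 4 groups of 1: a ChIP with the mouse monoclonal antibody 4A4 against p63, the input of that ChIP, a ChIP against H3K27ac (an acetylated lysine in the tail of histone H3, found at active promoters and enhancers), and its input. All 4 share genotype label, age and tissue, and the labels do not say how many mice gave the cells or how long they were kept in culture. Each peak list sets 1 ChIP library against 1 input, so there are no replicates and no difference below was tested. The lists hold positions only, so depth is unknown.

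Keratins are the intermediate filament proteins of epithelial cells, and a filament forms from pairs of a type I and a type II keratin. Basal cells of stratified and glandular epithelia carry Krt5 (type II) with Krt14 and Krt15 (type I). Simple and ductal epithelium carries Krt7 and Krt8 (type II) with Krt18 and Krt19 (type I). Krt6a, Krt16 and Krt17 are known from wounded and hyperproliferative epithelium. Krt1, Krt2 and Krt10 mark the suprabasal layers of skin, and the hair keratins with the keratin-associated proteins build the hair shaft. Transcription factor p63, a member of the p53 family, maintains basal epithelial cells, and Krt5 and Krt14 are well-known p63 targets in skin.

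Both clusters were read in steps of 50 kb counted from the lower coordinate, 22 steps in type I (the last is 20 kb long) and 15 in type II. The steps were grouped into basal, simple, suprabasal and hair parts. The grouping rests on the landmarks Krt14 at about 100.064 Mb, Krt5 at about 101.54 Mb, and Krt8 with Krt18 at the higher end of the type II cluster, and on the known order of the genes. No mm9 annotation was used, so part edges are approximate and no peak is assigned to a gene. In the RefSeq table of GRCm38.p6, used for gene order only, the type I cluster runs from Krt24 to Krt40 on the suprabasal side (11 protein-coding genes, among them Krt10, Krt12, Krt20 and Krt23). It goes on from Krtap3-3 to Krt36 with 45 genes, of which 23 are named as keratin-associated proteins, 7 as keratins and 15 otherwise, and then with Krt13, Krt15, Krt19, Krt9, Krt14, Krt16, Krt17 and Krt42 (the basal part). The type II cluster begins with Krt80 and Krt7 (simple part at the lower end), followed by hair keratins and Krt75, then Krt6b, Krt6a and Krt5 (basal part). Krt80 is not among the simple keratins named above, so the part at the lower end is called simple for Krt7 only. After these come the suprabasal and root-sheath genes from Krt71 to Krt78, with Krt2, Krt1 and Krt4, and last Krt8 and Krt18 (simple part at the higher end). Krt19, a keratin of simple epithelium, thus stands among the basal type I genes. So do Krt16 and Krt17, known from wounded epithelium like Krt6a, which stands in the type II basal part. Part names are therefore labels of position, and values of a basal part are not values of basal keratins alone. Krt18, a type I keratin, stands in the type II cluster next to its partner Krt8.

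The sequence under the peaks is not shown, since it needs the mm9 genome. The RefSeq promoter table (GRCm38.p6) holds 5 of the 10 keratins of interest, Krt5, Krt7, Krt8, Krt14 and Krt18. Its start for Krt14 lies 1480 bases inside the RefSeq gene, so that stretch is not printed. The 250 bases before the start of the others are shown because these are the basal keratin and the simple keratins that mark the most acetylated type II parts. Their coordinates are GRCm38.p6 and cannot be set against the mm9 peak positions, so whether a peak covers these bases was not determined. Capitals mark matches, on either strand, to 4 motifs: the p53-family decamer, the TATA box (searched as TATAAA), the site of the factor AP-1 (searched as TGANTCA) and the GC box (searched as GGGCGG). No matches overlapped.
Krt5, chr15:101712906-101713155, minus strand: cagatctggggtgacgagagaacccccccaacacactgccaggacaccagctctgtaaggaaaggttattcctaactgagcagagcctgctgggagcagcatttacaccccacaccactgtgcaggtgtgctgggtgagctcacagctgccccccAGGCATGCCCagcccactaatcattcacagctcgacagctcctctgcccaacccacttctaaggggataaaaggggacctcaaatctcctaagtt
Krt7, chr15:101412153-101412402, plus strand: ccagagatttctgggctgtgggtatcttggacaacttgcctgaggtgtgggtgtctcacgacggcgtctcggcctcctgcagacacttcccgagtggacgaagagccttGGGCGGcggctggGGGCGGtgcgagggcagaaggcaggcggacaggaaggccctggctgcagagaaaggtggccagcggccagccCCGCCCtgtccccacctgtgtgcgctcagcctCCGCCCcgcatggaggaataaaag
Krt8, chr15:102004343-102004592, minus strand: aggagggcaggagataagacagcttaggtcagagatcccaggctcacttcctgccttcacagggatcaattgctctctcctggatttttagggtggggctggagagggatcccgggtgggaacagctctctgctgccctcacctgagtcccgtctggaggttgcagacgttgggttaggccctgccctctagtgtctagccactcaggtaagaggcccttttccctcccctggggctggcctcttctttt
Krt18, chr15:102027966-102028215, plus strand: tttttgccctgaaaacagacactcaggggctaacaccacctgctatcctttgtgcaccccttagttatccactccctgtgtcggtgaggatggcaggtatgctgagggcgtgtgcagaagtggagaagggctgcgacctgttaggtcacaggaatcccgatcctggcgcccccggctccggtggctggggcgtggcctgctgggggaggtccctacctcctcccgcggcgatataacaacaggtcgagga

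The Krt5 stretch held 1 match to the p53-family decamer, AGGCATGCCC, from 95 to 86 bases before the start. That motif was present in 7.13% of the 32851 promoters of this length in the table. The Krt7 stretch held 4 matches to GGGCGG, a motif found in 32.7% of all promoters, and a GC content of 66.0% against a median of 52.4% over all promoters. The stretches of Krt8 (58.0% GC) and Krt18 (60.4% GC) held no match to any of the 4 motifs as searched. The strings TATAAA (12.4% of all promoters) and TGANTCA (6.75%) matched in none of the 4. Looser forms of these sites were not searched, so the lack of a match does not show that a TATA box is absent. The letters ataaaa, near the end of the Krt5 and Krt7 stretches, do not count as a match. A match is a description of the letters and not evidence of binding, and these windows reach only 250 bases from the start.

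H3K27ac peaks were concentrated in a few short stretches of the keratin clusters, in the basal and simple parts, while the hair parts were close to the genome's average. Over both clusters H3K27ac peaks covered 7.18% of the bases, against 1.87% over all 50 kb windows of the genome. Coverage was 14.6% in the type I basal part and 27.5% in the type II basal part. It was 37.4% in the type II simple part with Krt80 and Krt7 and 23.7% in the simple part with Krt8 and Krt18. In the hair parts it was 1.22% (type I) and 2.70% (type II), and in the suprabasal parts 2.79% and 3.11%.

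**Figure D1:**
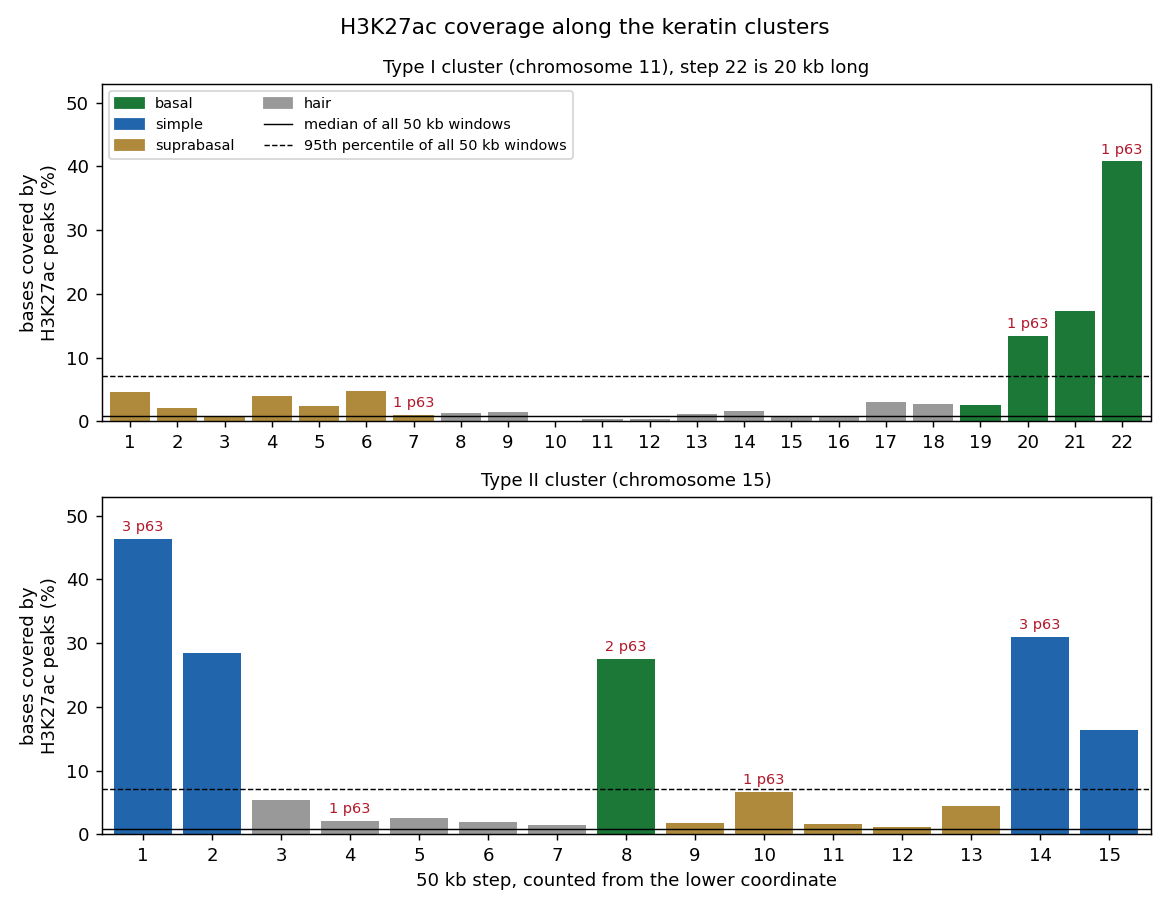
Share of bases covered by H3K27ac peaks (y axis, percent) in each 50 kb step (x axis) of the type I and type II keratin clusters, coloured by part, with the number of p63 peaks in red; the lines are the median (0.868%) and 95th percentile (7.12%) of all 50 kb windows. Steps 20 to 22 of type I and steps 1, 2, 8, 14 and 15 of type II stand above the line of the 95th percentile. Step 22 is 20 kb long, so it has no rank among 50 kb windows.

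The basal type I part held the landmark gene Krt14 and was unevenly acetylated. Step 19, at the end nearest to the hair keratins, had 6 H3K27ac peaks of at most 270 bases that covered 2.52%, more than 78.8% of the 51372 windows of 50 kb in the genome. Step 20, which contains the Krt14 landmark, had 10 peaks that covered 13.4%, more than 98.7% of all windows. Step 21, chr11:100080001-100130000, had 15 peaks that covered 17.3%, more than 99.3% of windows. The last 20 kb, chr11:100130001-100150000, had 11 peaks that covered 40.8%. Coverage in the basal type I part was thus highest in its last 3 steps, from the one with the Krt14 landmark to the end of the region. By gene order this end lies past Krt42, but the last 20 kb are counted in all values of the type I basal part. Without them the basal over hair ratios in type I were 3.16 (density) and 9.13 (coverage).

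In the type II cluster the step with the Krt5 landmark was far more acetylated than its neighbours. Step 8, chr15:101500001-101550000, held 23 H3K27ac peaks that covered 27.5% of its bases, more than 99.8% of all windows. Step 7, on the hair keratin side, had 3 peaks and 1.42% coverage, more than 64.2% of all windows. Step 9, on the side of Krt71, had 4 peaks and 1.83%, more than 71.1%. The basal part of type II, with Krt6b, Krt6a and Krt5 by gene order, thus stood out from the steps beside it. A stretch of 52554 bases without any H3K27ac peak, chr15:101466455-101519008, began in the hair part and reached 19008 bases into step 8.

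The parts called simple, at both ends of the type II cluster, had the most H3K27ac peaks per length, 530 and 500 per Mb. By coverage the part with Krt8 and Krt18 (23.7%) stood below the type II basal part (27.5%). Step 1, chr15:101150001-101200000, had 32 H3K27ac peaks that covered 46.4% of its bases, and step 2, chr15:101200001-101250000, had 21 peaks that covered 28.4%. Genes that neighbour Krt80 outside the keratin family may also lie in step 1, since the part edges are approximate. At the Krt8 and Krt18 end, step 14, chr15:101800001-101850000, had 30 peaks that covered 31.0% and step 15 had 20 peaks that covered 16.4%. Each of these 4 steps exceeded at least 98.9% of all windows in number of peaks.

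The hair parts, 800 kb in all, held no H3K27ac peak wider than 430 bases and together had about the genome's average coverage. The type I hair part had 36 H3K27ac peaks in 550 kb, none wider than 275 bases, and step 10, chr11:99530001-99580000, had no peak. The empty stretch around it, chr11:99520638-99594385, was 73748 bases long, and 2.75% of all gaps between neighbouring H3K27ac peaks in the genome were at least that long. The type II hair part had 31 peaks in 250 kb, none wider than 430 bases. Its step 3, next to the simple part with Krt80 and Krt7, had 11 of them and 5.37% coverage, more than 92.0% of all windows. Of the 16 hair steps, 11 were above the median coverage of all windows, 0.868%. Of both hair parts together, 1.68% was covered, 0.899 times the genome's share, and they had 1.17 times the genome's density of peaks (exact 95% interval 0.907 to 1.49). The 2 parts differed: type I had 65.5 peaks per Mb (exact Poisson 95% interval 45.8 to 90.6) and 1.22% coverage. Type II had 124 per Mb (interval 84.3 to 176) and 2.70%, beside 71.5 and 1.87% in the genome.

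Among the 36 steps of full length, 9 (25%, Wilson 95% interval 13.8 to 41.1%) had at least 5% of their bases covered, against 8.96% of all 50 kb windows. They were the basal steps 20 and 21 among 21 in type I, and 7 of 15 in type II: the basal step 8, the simple steps 1, 2, 14 and 15, the hair step 3 (5.37%) and the suprabasal step 10 (6.61%). At least 20 H3K27ac peaks were found in 5 of the 36 steps (13.9%, interval 6.08 to 28.7%), against 1.05% of windows, and these were the simple steps 1, 2, 14 and 15 and the basal step 8 of type II. No H3K27ac peak was found in 1 step (2.78%, interval 0.492 to 14.2%), against 20.1% of windows. The limits of 5% and 20 peaks were set after the values were seen, so these shares describe the steps and do not test them. These intervals, and all others here, cover counting error only and treat steps or peaks as independent, although neighbouring peaks often belong to 1 acetylated stretch.

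Set against the hair part of the same cluster, H3K27ac peaks per length were 3.77 times as dense in the type I basal part (exact 95% interval 2.36 to 6.06) and 3.71 times in the type II basal part (interval 2.07 to 6.57). They were 4.27 times as dense in the simple part with Krt80 and Krt7 (interval 2.69 to 6.89) and 4.03 times in the part with Krt8 and Krt18 (interval 2.53 to 6.53). The covered share differed more, by 12.0 and 10.2 times for the basal parts and by 13.8 and 8.77 times for the simple parts, and the peaks of these parts were also wider. Basal and simple type II parts did not differ beyond counting error: the simple parts had 1.15 (interval 0.694 to 1.97) and 1.09 (interval 0.651 to 1.87) times the peak density of the basal part. Suprabasal and hair parts of type II were also within counting error, with a ratio of 1.1 (interval 0.654 to 1.85). In type I the suprabasal side had 1.66 times the density of the hair part (interval 1.02 to 2.69). With the basal parts of both clusters pooled, the simple parts had 1.74 times their peak density (interval 1.27 to 2.42), beyond counting error. All simple parts are in type II, where the basal part was denser than that of type I. The type II basal part is a single step, and its ratio depends on where that step is placed: with all part edges 25 kb lower, which leaves the Krt5 landmark outside the part, the density ratio was 1.03 and the covered ratio 1.16.

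As a whole the type II cluster was more acetylated than the type I cluster, with 255 against 108 H3K27ac peaks per Mb (ratio 2.35, interval 1.86 to 2.98) and 11.9% against 3.85% covered. Against their surroundings, the type I cluster was the less acetylated one and the type II cluster was not. The type I cluster had 0.498 (interval 0.395 to 0.625) and 0.479 (interval 0.381 to 0.601) times the peak density of the stretches of equal length at lower and higher coordinates. The type II cluster had 1.30 (interval 1.04 to 1.62) and 1.23 (interval 0.992 to 1.53) times that of its own neighbours, the latter within counting error. Both clusters lie in acetylated neighbourhoods: the 4 neighbouring stretches had between 196 and 226 peaks per Mb, and the genome 71.5. Coverage of these stretches was between 5.14 and 7.53%, and that of the genome 1.87%. The hair parts, close to the genome's average, were thus below their surroundings, with 65.5 and 124 peaks per Mb and 1.22 and 2.70% coverage. So were the suprabasal parts, with 109 and 136 per Mb and 2.79 and 3.11%.

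H3K27ac peaks were wide in the basal and simple parts, and elsewhere in the clusters their median was close to that of all H3K27ac peaks. The median width was 301 bases (quartiles 201 and 712) in the basal parts and 371 (189 and 651) in the simple parts. It was 189.5 (150 and 243) in the suprabasal parts and 183 (154 and 229.5) in the hair parts, beside a median of 191 (155 and 260) for all H3K27ac peaks. Of the 307 members, 29 (9.45%, Wilson 95% interval 6.66 to 13.2%) were at least 1000 bases wide, against 1.91% of all H3K27ac peaks. Of these wide peaks, 11 lay in basal, 16 in simple, 2 in suprabasal and 0 in hair parts. In the 4 stretches of equal length beside the clusters, between 2.72 and 7.10% of H3K27ac peaks were this wide, and the higher value lies inside the interval of the members. The limit of 1000 bases was set after the values were seen. Peaks of the smallest width in the list made up 27.8% of the suprabasal, 19.4% of the hair, 5.83% of the simple and 3.08% of the basal members, beside 21.7% of all H3K27ac peaks.

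**Figure D2:**
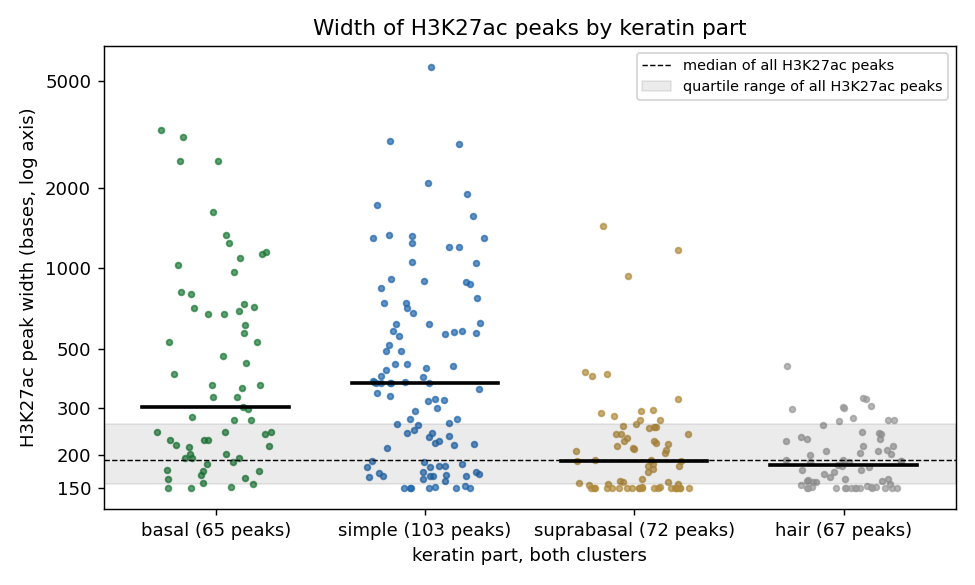
Width of each H3K27ac peak (y axis, bases, log scale) in the basal, simple, suprabasal and hair parts of both clusters; black bars are medians, the dashed line and band are the median and quartiles of all H3K27ac peaks. All 67 peaks of the hair parts are at most 430 bases wide, and the basal and simple parts reach 3283 and 5666 bases.

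The widest H3K27ac peak of the clusters, chr15:101195222-101200887 with 5666 bases, lay in the simple part with Krt80 and Krt7, and 0.00599% of all H3K27ac peaks were at least as wide. The peaks chr15:101201014-101204008 (2995 bases), chr15:101158771-101161699 (2929 bases) and chr15:101193048-101195126 (2079 bases) were in the same part. The other of the 5 widest type II peaks, chr15:101542666-101545190 (2525 bases), lay near the Krt5 landmark and was the only one of them that shared bases with a p63 peak. In type I the widest was chr11:100119001-100122283 (3283 bases), in step 21, on the side of Krt16, Krt17 and Krt42, and its nearest p63 peak was 26134 bases away. Next came chr11:100145394-100148495 (3102 bases), which shared bases with a p63 peak at the higher end of the cluster, and chr11:100066067-100068585 (2519 bases) near the Krt14 landmark. The peak chr11:99091133-99092567 (1435 bases), at the opposite end, was the single wide peak of the suprabasal side. The peak chr11:100069831-100071161 (1331 bases) enclosed the p63 peak near Krt14.

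Joined at distances of at most 1 kb, the H3K27ac peaks formed 13 domains of 2 or more peaks in type I and 33 in type II. The longest was chr15:101157261-101172748, with 16 peaks over 15488 bases, 78.3% of them covered and 2 p63 midpoints inside. The domain chr15:101192127-101207135 was nearly as long (15009 bases, 8 peaks, 89.3% covered) and held no p63 midpoint. In type I the domain chr11:100142509-100154554 spanned 12046 bases across the end of the region, and chr11:100113998-100123671 spanned 9674 bases without a p63 midpoint. Among all domains of the genome, 0.150% were at least as long as the first of these and 0.572% as the last. Long acetylated domains of the keratin clusters were thus found both with p63 peaks and without. The hair parts had 9 domains, none longer than 2063 bases.

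p63 peaks lay mostly in the parts called basal and simple, which are labels of position. The 13 p63 peaks divided into 3 in type I and 10 in type II: 4 in basal parts, 6 in simple parts, 2 in suprabasal parts and 1 in hair parts. That is 18.2 per Mb (exact Poisson 95% interval 4.95 to 46.6) in basal, 30.0 (interval 11 to 65.3) in simple, 3.33 (interval 0.404 to 12.0) in suprabasal and 1.25 (interval 0.0316 to 6.96) in hair parts, beside 1.61 per Mb in the genome. Basal parts had 14.5 times (interval 1.44 to 716) and simple parts 24.0 times (interval 2.91 to 1104) the density of hair parts. With 1 peak in the hair parts these ratios are poorly fixed. The simple rate counts 3 peaks of step 1 of type II, where genes outside the keratin family may also lie. The basal rate counts 1 peak at the end of type I that lies past Krt42 by gene order. Rates without these peaks were not computed. With both clusters pooled, simple and basal parts did not differ in p63 density beyond counting error (ratio 1.65, interval 0.391 to 7.95). Type II had 13.3 p63 peaks per Mb and type I 2.80 (ratio 4.76, interval 1.22 to 26.9). At least 1 p63 peak was found in 7 of the 36 full steps (19.4%, Wilson 95% interval 9.75 to 35%), against 6.91% of all windows, and at least 2 in 3 steps (8.33%, interval 2.87 to 21.8%), against 0.946%. The 7 were 2 of 21 steps in type I and 5 of 15 in type II. Type I had 0.750 (interval 0.110 to 4.43) and 0.429 (interval 0.0715 to 1.88) times the p63 density of its lower and higher neighbouring stretches. For type II it was 3.33 (interval 0.858 to 18.8) at lower coordinates, and the higher stretch had 0 p63 peaks.

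Near the Krt14 landmark there was 1 p63 peak, chr11:100069988-100070208, 221 bases wide. Its midpoint lay 6.10 kb above the landmark position, and the whole peak was inside an H3K27ac peak of 1331 bases. Krt14 is transcribed from the minus strand in RefSeq, so higher coordinates are on its upstream side, but the distance to its start was not measured, since the landmark is approximate. H3K27ac peaks covered 52.6% of the bases within 5 kb of this p63 peak. Within 20 kb of the landmark, 10 H3K27ac peaks covered 16.4%.

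Near the Krt5 landmark there were 2 p63 peaks, chr15:101544249-101544418 (170 bases) and chr15:101545601-101545752 (152 bases), with midpoints 1343 bases apart and 4.33 and 5.68 kb above the landmark. Each lay wholly inside its own H3K27ac peak, of 2525 and 1029 bases. Krt5 is also on the minus strand in RefSeq. Within 20 kb of the landmark, 20 H3K27ac peaks covered 32.8%, and the domain around both p63 peaks, chr15:101541355-101549233, was 82.3% covered. Both basal landmarks therefore had p63 on the side of higher coordinates, inside acetylated chromatin. A further domain of step 8, chr15:101522737-101528935 (6199 bases, 76.3% covered), held no p63 midpoint.

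**Figure D3:**
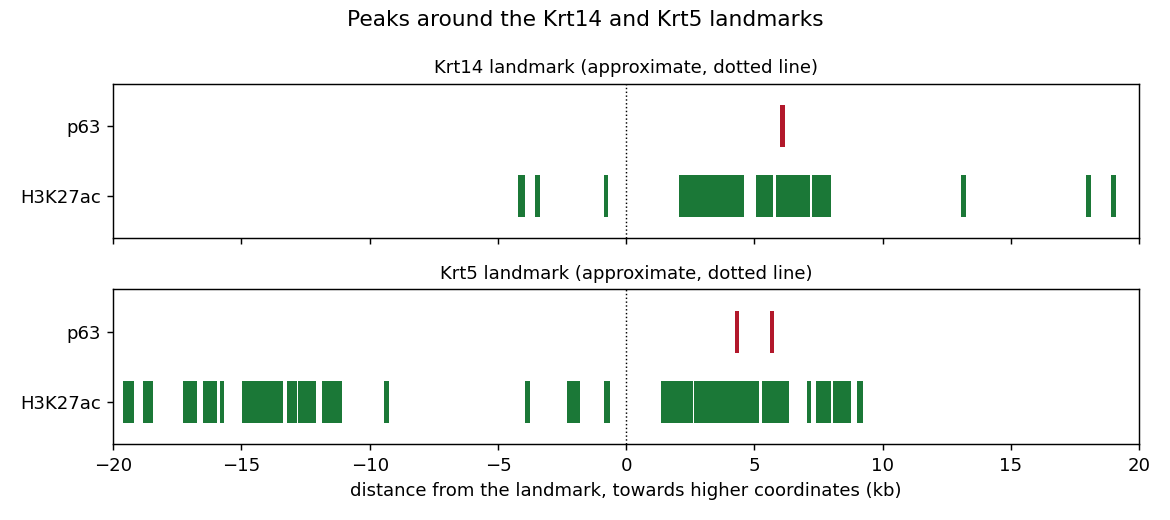
H3K27ac peaks (green) and p63 peaks (red) within 20 kb of the approximate Krt14 and Krt5 landmarks, by distance in kb towards higher coordinates. The p63 midpoints stand at 6.10 kb (Krt14) and at 4.33 and 5.68 kb (Krt5), inside H3K27ac peaks.

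In the simple part with Krt8 and Krt18 there were 3 p63 peaks, all in step 14. The peak chr15:101846429-101846644 (216 bases) lay wholly inside an H3K27ac peak of 1041 bases. The peak chr15:101835954-101836154 (201 bases) shared 156 bases with an H3K27ac peak of 1200 bases. The peak chr15:101811336-101811600 (265 bases) shared none, but sat in a gap of 436 bases between H3K27ac peaks of 618 and 390 bases and missed the nearer one by 2 bases. Around these 3 peaks, H3K27ac covered 54.7%, 50.7% and 29.4% of the bases within 5 kb. Step 15, also in this part, held no p63 peak.

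The simple part with Krt80 and Krt7 also had 3 p63 peaks, all in step 1. The peaks chr15:101166951-101167200 (250 bases) and chr15:101168859-101169098 (240 bases) were 1903 bases apart by midpoint and stood at either end of 1 H3K27ac peak of 1892 bases. The first shared 171 bases with 2 H3K27ac peaks, and the other shared 79 bases with 2 and had its midpoint in the gap of 161 bases between them. The peak chr15:101184729-101184916 (188 bases) shared 112 bases with 2 narrow H3K27ac peaks, of 180 and 235 bases, and 15.6% of the bases within 5 kb were covered. Step 2 had 28.4% coverage and no p63 peak.

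At the higher end of the type I cluster, the p63 peak chr11:100148418-100148660 (243 bases) shared 130 bases with 2 H3K27ac peaks, of 3102 and 715 bases, and had its midpoint in the gap of 113 bases between them. It had the highest surrounding coverage of the 13 members, 80.6% within 5 kb. Just outside the region, 2067 bases further by midpoint, another p63 peak, chr11:100150512-100150700 (189 bases), shared 113 bases with an H3K27ac peak of 2915 bases. By gene order this end lies past Krt42, although its p63 peak inside the region is counted with the basal part. With the region widened by 50 kb on each side the type I cluster had 5 p63 peaks in place of 3.

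The remaining p63 peaks differed in their surroundings. In the suprabasal type II part, chr15:101600735-101601085 was the widest member (351 bases) and covered a whole H3K27ac peak of 150 bases, with 26.6% coverage within 5 kb. The hair part of type II held the narrowest member, chr15:101338946-101339089 (144 bases), 146 bases from an H3K27ac peak and with 4.48% coverage. The suprabasal side of type I held chr11:99418316-99418517 (202 bases), 8805 bases from the nearest H3K27ac peak and with no coverage within 5 kb. These were 2 of the 3 members that shared no base with H3K27ac.

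Direct overlap, by 1 base or more, joined 10 of the 13 p63 members to H3K27ac (76.9%, Wilson 95% interval 49.7 to 91.8%), against 34.8% of all 4130 p63 peaks. Within 1 kb of H3K27ac there were 12 (92.3%, interval 66.7 to 98.6%), against 68.4%. The interval of the first share lies above the value of all p63 peaks, and that of the second contains it. Overlap was also found in the neighbouring stretches of equal length. Beside type I, 2 of 4 p63 peaks at lower and 6 of 7 at higher coordinates shared a base with H3K27ac. Beside type II it was 1 of 3 at lower coordinates, and the other stretch had 0 p63 peaks. A high share is thus not particular to the keratin clusters. At least 20% of the bases within 5 kb were covered at 10 members (76.9%), against 19.5% of all p63 peaks, and the median coverage was 52.6% against 6.32%. The limit of 20% was set after the values were seen. The p63 midpoint was inside an H3K27ac peak at 8 members (61.5%, interval 35.5 to 82.3%), against 18.8%. At 2 members (15.4%, interval 4.33 to 42.2%) bases were shared but the midpoint was outside, against 16.1% of all p63 peaks, a share near the background. Wholly inside an H3K27ac peak were 3 basal members and 1 simple member (together 30.8%, interval 12.7 to 57.6%), against 9.78% of all p63 peaks, and the other 6 sharing members overlapped in part. Another p63 peak lay within 10 kb, midpoint to midpoint, at 5 members (38.5%, interval 17.7 to 64.5%) and at 14.5% of all p63 peaks. Seen from the acetylated side, 13 of the 307 H3K27ac members (4.23%, Wilson 95% interval 2.49 to 7.11%) shared a base with p63, against 0.839% of all H3K27ac peaks.

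**Figure D4:**
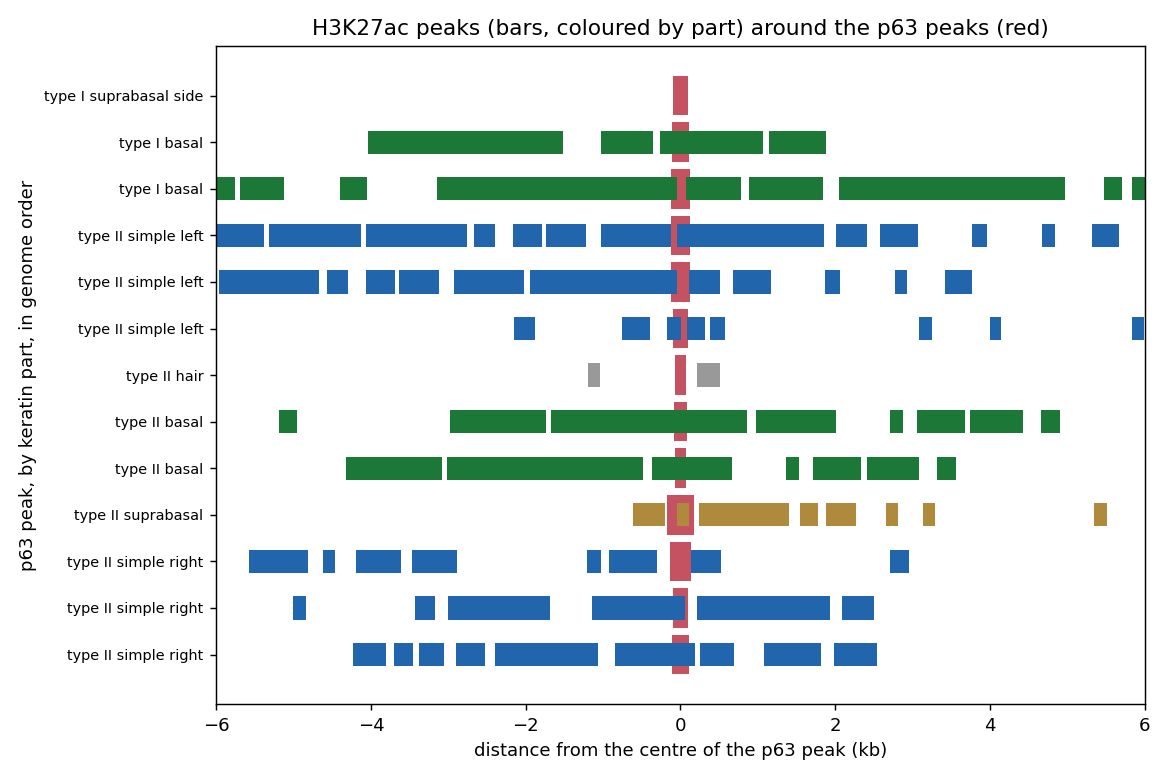
H3K27ac peaks (bars, coloured by part) within 6 kb of the centre of each of the 13 p63 peaks (red), one row per p63 peak in genome order, with distance in kb on the x axis. The 3 p63 peaks near the Krt14 and Krt5 landmarks lie wholly inside H3K27ac peaks, and the one on the type I suprabasal side has none in view.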

How the data were processed

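ChIP-seq was done on p63 and on H3K27ac in salivary gland epithelial progenitor cells, each with its own input. The submitters' processing notes name the aligner Bowtie 1.1.1, the peak caller MACS2 2.1.0 and the build mm9. How these were set, at which threshold and with which filters, is not given in the sources used here. Each deposited list has 3 columns per peak (chromosome, start, end), with no score, fold or p-value; starts are printed counted from 1. A looser threshold or more depth gives more and wider peaks, so p63 and H3K27ac peak numbers are not comparable as amounts.

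Members, parts and lists were chosen with earlier results of these data known. Membership was by peak midpoint. Parts are sets of 50 kb steps; the background is 51372 windows of 50 kb, which reach on every chromosome over all peaks of both lists. Overlap needed 1 shared base, domains joined peaks at most 1 kb apart, and coverage around p63 was taken within 5 kb of its midpoint. Shares carry Wilson and rates exact Poisson or conditional 95% intervals; no test was run, since each group has 1 library. Named were the 10 keratins and the genes of the parts, all p63 members, and per cluster the 5 widest H3K27ac peaks and the 3 steps with most covered bases; other steps, domains and gaps were named after their values were seen, and so were the limits of 5% and 20% coverage, 20 peaks and 1000 bases. The functions for windows, coverage and overlap were tested on simulated peaks. Alternatives covered membership, region, peak width, part edges, overlap, joining and neighbouring stretches. Computations used scipy 1.17.1, pandas 2.3.3 and numpy 2.4.6 under Python 3.11.15, with figures by matplotlib 3.10.9.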

Additional observations from a re-analysis of the deposited data

How the results depend on the processing

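Of 73 alternatives, 25 moved and 48 did not, and none reversed. Those that dropped p63 peaks of the smallest width (120 bases) could not move, since the narrowest p63 member has 144 bases. They are counted among the 48. Counts were held to 1.5 times and densities and shares to their interval. Coverage has no interval of its own and was held to the relative interval of the peak number or density behind it. Requiring H3K27ac widths of at least 200 bases gave 61 peaks and 3.01% coverage in type I and 123 peaks in type II, and basal over hair ratios in type I of 10 (density) and 31.0 (coverage). Requiring 300 bases gave 22 peaks and 2.14% in type I and 84 peaks and 9.19% in type II. In type II the density and coverage ratios over hair were then 12.5 and 30.9 (basal), 13.3 and 42.0 (simple, Krt80 and Krt7) and 11.7 and 24.3 (simple, Krt8 and Krt18); in type I no hair peak was left, so that ratio could not be given. Part edges 25 kb lower gave 1.03 and 1.16 for type II basal, by moving the Krt5 landmark out of the part, and 4.29 for coverage of the part with Krt8 and Krt18. Edges 25 kb higher stayed within these wide limits but gave 2.29 and 6.61 for type II basal and a coverage ratio of 8.99 for the part with Krt80 and Krt7, shifts of over 1.5 times. Widening the regions by 50 kb gave 5 p63 peaks in type I. Within 1 kb of H3K27ac lay 92.3% of p63 members. Joining at 500 bases gave 8 domains in type I, and at 10 kb 23 in type I and 16 in type II. Neighbouring stretches of 500 kb gave 0.366 for type I at lower coordinates. Above the smallest width, the suprabasal median width was 218 bases. Chosen after seeing the data, leaving out the last 20 kb of type I gave a basal over hair density of 3.16 and coverage of 9.13, and leaving out step 1 of type II gave 3.39 and 10.5 for the simple part. No paired analysis was possible because there was 1 library per group. Without depths, a stretch that has no peak is not shown to lack acetylation.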

Other observations

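The H3K27ac list does not follow the genome, and what orders its rows is not stated. Several keratin members stand near the top. The peak chr11:100149419-100150387 (969 bases), between 2 p63 peaks at the higher end of the type I cluster, is row 8 of 183757. Its neighbour chr11:100145394-100148495 (3102 bases) is row 191. In type II the earliest member is chr15:101167037-101168928 (1892 bases), in row 382, the peak with a p63 peak at either end. The first 18375 rows are 10% of all H3K27ac peaks. Among them were 43 of 103 members of the simple parts (41.7%, Wilson 95% interval 32.7 to 51.4%) and 25 of 65 of the basal parts (38.5%, interval 27.6 to 50.6%). Of the suprabasal parts there were 4 of 72 (5.56%, interval 2.18 to 13.4%), and of the hair parts 0 of 67 (upper limit 5.42%). Wider peaks stand earlier in the list (Spearman rho of row number and width -0.44 across its peaks, given as a description), so these shares are not independent of the widths given above.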
